A study of Mus musculus with 5 samples.

Results

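Genes that mark macrophages and neutrophils were followed in mouse dorsolateral prostate, as 39 members taken by symbol from a hand-chosen list, out of 51912 genes listed in the files. All 39 symbols were found, each with 1 gene identifier, and 34 members had enough counts to be tested. RNA was measured by sequencing total RNA of flash-frozen tissue from 3-month-old male mice. The 2 libraries labelled Ghr deletion came from mice with loxP-flanked alleles of the growth hormone receptor gene (Ghrflox/flox) and 1 copy of a Cre recombinase that tamoxifen activates, placed in the ROSA26 locus (ROSA26Cre-ERT2+/0). The 3 control libraries came from Ghrflox/flox mice for which the labels give no Cre. All mice, controls included, were given 250 mg/kg of tamoxifen a day over 5 days, and their prostates were collected 1 month after dosing ended. The ROSA26 locus is active in most cell types, so the labels do not limit the deletion to prostate epithelium. The labels call the samples biological replicates and say no more on whether each came from its own animal.

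Macrophages are resident phagocytes of the prostate stroma and epithelium. They clear dying cells and secretions, take up bound targets through Fc and lectin receptors, and degrade them in lysosomes. Their development and survival depend on the transcription factor PU.1 and on signals through the colony stimulating factor 1 receptor. Neutrophils are short-lived phagocytes that circulate in blood, and few are found in uninflamed tissue. In whole tissue a lower level can come from fewer cells of a type or from less RNA per cell, and these cannot be told apart.

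The libraries held 31740687 and 32782683 expected counts in the libraries labelled Ghr deletion (replicates 1 and 2), and 19517831, 29705618 and 41553558 in the controls (replicates 1 to 3). Levels of 1 gene across libraries are given as CPM, counts relative to the library size scaled by edgeR's TMM method. Levels of different genes are compared as the deposited TPM, which divides by gene length and has no TMM scaling. Ghr itself had 21.5 and 10.2 CPM in libraries labelled Ghr deletion, against 10.1, 11.8 and 13.2 CPM in controls. Its counts cover the whole gene, so they do not show whether an exon was removed, and groups are named by their labels. Summed levels of 8 seminal vesicle genes ran from 104999 to 183272 CPM in libraries labelled Ghr deletion and from 234412 to 451761 CPM in controls. Their median log2 fold change between the groups was -7.48, with 6 genes below 0 and 2 above. DESeq2 called 5 of the 8 lower, and edgeR called 0. The controls also differed among themselves. The median log2 difference over these genes was -5.19 for control replicate 3 over replicate 2, and 1.04 for replicate 1 over replicate 2. The part of these differences in the results below was not tested.

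Macrophage genes were detected in every library, at low to moderate levels, and none of the 34 tested members passed the test between the groups. By edgeR's quasi-likelihood test no member passed an adjusted p of 0.05 (0 higher and 0 lower), against 0% of all 18590 tested genes in each direction. At an unadjusted p under 0.05 there were also 0 members, against 1.16% of all genes on the higher side and 3.1% on the lower side. DESeq2 gave 0 members, where 0.108% of all genes were higher and 0.328% lower, and limma-voom gave 0 members and 0% of genes. The members' median log2 fold change was 0.22 in the libraries labelled Ghr deletion over controls, and the median of all genes was -0.0063. Of the 34 members 24 lay above 0 and 10 below, where 49.4% of all genes lay above 0. The standard error of a member's log2 fold change ran from 0.33 to 1.55 with a median of 0.51. For 26 members the 95% interval held a log2 value of 1, a 2-fold higher level, and for 20 it held -1. Scaled by library size only, without TMM, the median of all genes moved to 0.58 and that of the members to 0.84, and Laptm5, Itgax and Cyba, below 0 with TMM, lay above 0.

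**Figure D1:**
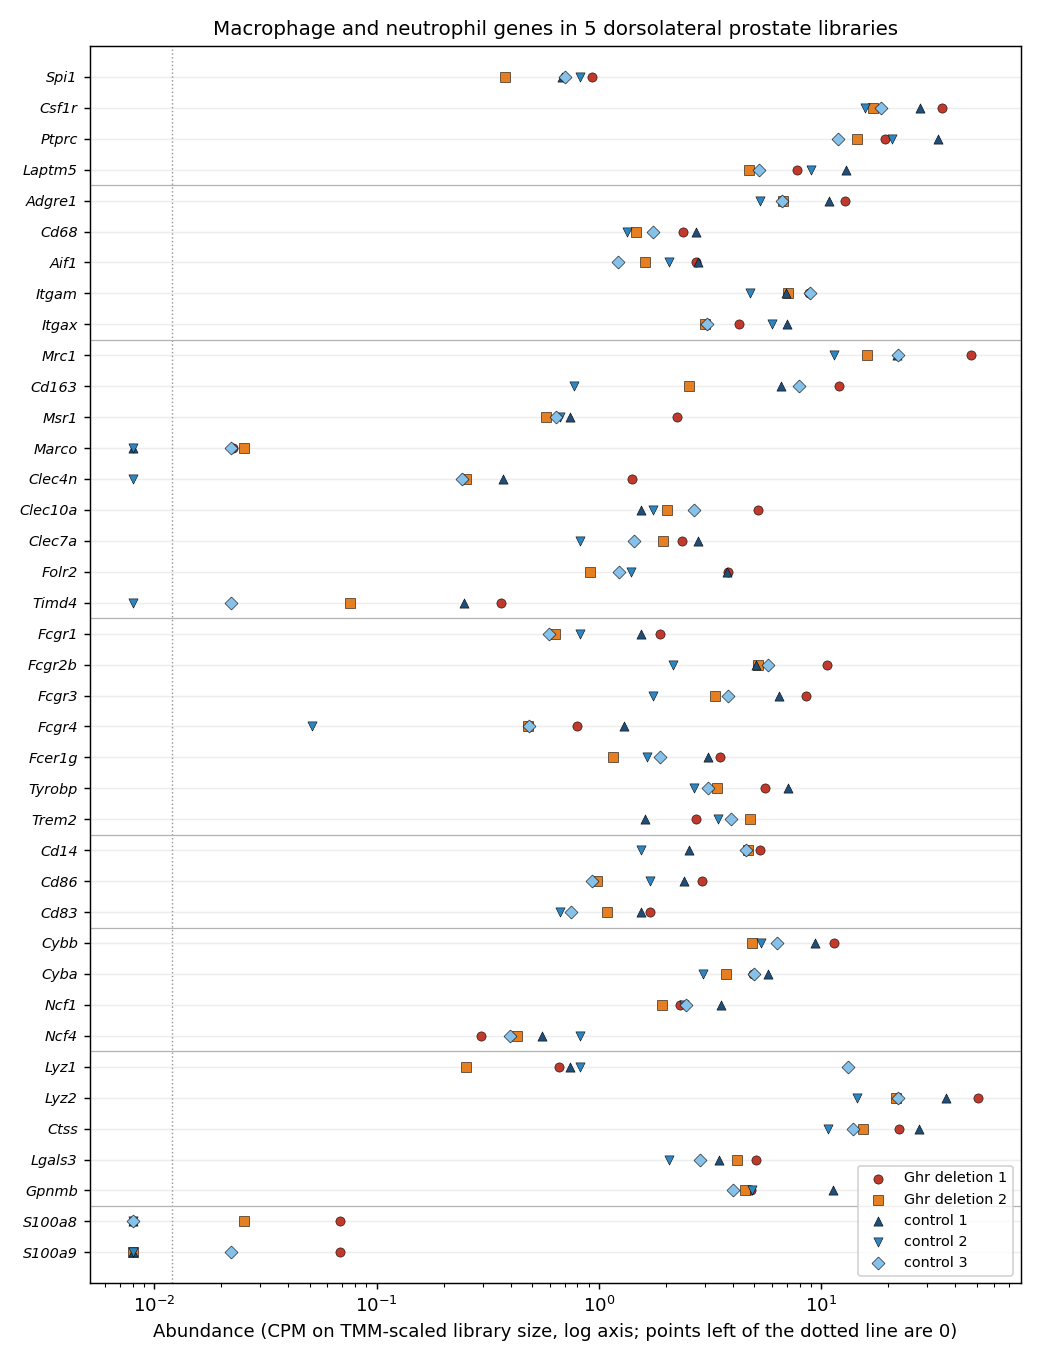
Abundance of the 39 members in each library, in CPM on a log axis, with 1 point per library and genes grouped by role with a line between roles. Ghr deletion replicate 1 is the highest point in CPM for 18 of the 34 tested members and control replicate 1 for 12, while Ghr deletion replicate 2 lies among or below the controls for most.

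The members' levels differed between libraries of the same group. The median difference of replicate 1 over replicate 2 was 0.63 among libraries labelled Ghr deletion and 0.75 among controls, on the log2(CPM + 0.5) scale. Over all genes these medians were -0.020 and 0.00066. The members' median log2 fold change between groups was 0.22. Summed over the 39 genes, the level was 314 and 163 CPM in libraries labelled Ghr deletion, against 274, 143 and 190 CPM in controls. The control sums lay between or below the sums of the libraries labelled Ghr deletion, so the groups overlapped on the CPM scale. On the TPM scale they did not, with sums of 224 and 89.3 TPM in libraries labelled Ghr deletion, against 72.4, 15.99 and 71.55 TPM in controls. Most genes shifted on that scale, to which TMM was not applied. Both libraries labelled Ghr deletion lay above every control in TPM for 21 of the 34 tested members and for 78.5% of all tested genes. Ghr deletion replicate 1 was highest in TPM for 31 members, against 78.2% of all genes, and control replicate 2 was lowest for 33, against 80.5%. The counts that follow are on the CPM scale. Ghr deletion replicate 1 lay above replicate 2 for 32 of 34 tested members, against 47.2% of all genes. It was the highest of the 5 libraries for 18 members, against 18.7% of all genes. Ghr deletion replicate 2 lay above every control for 3 members, within the range of the controls for 22 and below every control for 9. Among controls, replicate 1 lay above replicate 2 for 29 of 34 members. Control replicate 2 was the lowest of all libraries for 17 members, against 33.5% of all genes. Shares over all genes were not computed for Ghr deletion replicate 2 against the controls or for control replicate 1 over replicate 2. The groups did not overlap for 4 members. For Cd14 and Lgals3 both libraries labelled Ghr deletion lay above every control, and for Ncf1 and Lyz1 both lay below. These 2 in each direction stand against 10.8% of all genes on the higher side and 12.5% on the lower side, so the members' counts were not above that background.

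Leaving out 1 library moved the members together. Without Ghr deletion replicate 1 the median log2 fold change was -0.32, with 8 members above 0 and 26 below. Without Ghr deletion replicate 2 it was 0.69 over 36 tested members, with 28 above 0 and 8 below. With a control library left out it was 0.60 for replicate 1, 0.032 for replicate 2 and 0.044 for replicate 3. No member passed the edgeR test in any of these 5 comparisons.

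**Figure D2:**
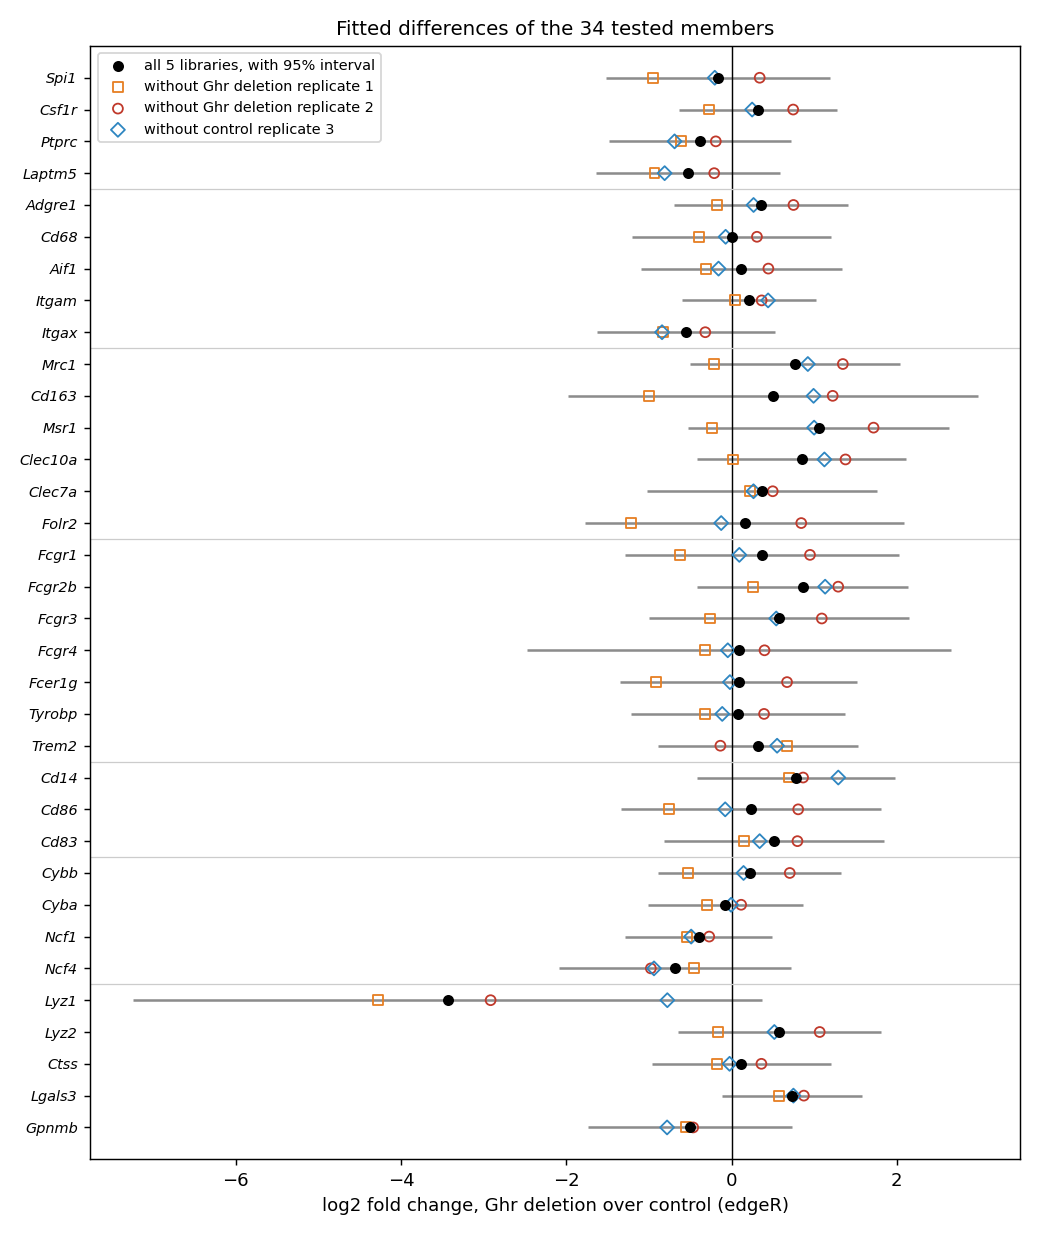
Log2 fold change of each of the 34 tested members, Ghr deletion over control, from edgeR with all 5 libraries (black points, bars for the 95% interval) and with 1 library left out (open symbols). All 34 intervals include 0, and most open squares, without Ghr deletion replicate 1, lie left of the black points, while most open circles, without replicate 2, lie right of them.

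PU.1, the product of the member Spi1, binds sequences around the core GAGGAA, and this core was looked up in the promoters of the members. The promoter table from RefSeq, on build GRCm38.p6, matched 28 of the 39 members, with windows from 250 bases before to 50 after the start of the gene. A gene was counted if any of its windows held the sequence. GAGGAA, on either strand, was found for 15 of the 28 members (53.6%) and for 31.3% of 27025 genes in the table. The longer GAGGAAGT, which contains GAGGAA, was found for 3 of the 28 (10.7%) and for 3.7% of genes. A gene with more windows has more places for a match, and the number of windows per gene was not compared between members and all genes. A match describes the letters in the window and does not show binding. To show where the core lies, 100 bases before or near the RefSeq start, which can differ from the GENCODE start printed for a gene, are given for 4 members described here, 5′ to 3′ on the strand of the gene, with GAGGAA or its reverse complement in capitals. The stretches are chr2:14229314-14229413 (plus strand) for Mrc1, chr1:171059404-171059503 (minus strand) for Fcgr3, chr4:130913216-130913315 (plus strand) for Laptm5 and chr3:95526575-95526674 (plus strand) for Ctss. The Fcgr3 stretch lies inside the GENCODE gene, which runs from 171051174 to 171064935. The Laptm5 stretch also lies inside its GENCODE gene.
Mrc1: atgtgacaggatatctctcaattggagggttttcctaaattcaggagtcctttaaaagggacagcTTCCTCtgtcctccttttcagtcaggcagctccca
Fcgr3: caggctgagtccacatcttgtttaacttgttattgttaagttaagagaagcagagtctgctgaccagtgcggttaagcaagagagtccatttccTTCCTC
Laptm5: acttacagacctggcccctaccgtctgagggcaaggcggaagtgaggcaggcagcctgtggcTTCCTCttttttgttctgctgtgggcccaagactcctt
Ctss: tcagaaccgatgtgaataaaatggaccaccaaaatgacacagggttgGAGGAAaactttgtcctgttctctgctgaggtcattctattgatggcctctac

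Of 4 lineage genes, 1 had a log2 fold change above 0 and 3 below, and none passed. Csf1r (ENSMUSG00000024621, chromosome 18) encodes the receptor for colony stimulating factor 1, on which most tissue macrophages depend. It had 34.7 and 17.1 CPM in libraries labelled Ghr deletion, against 27.8, 15.8 and 18.6 CPM in controls. Ghr deletion replicate 1 was the highest library and replicate 2 lay between control replicates 2 and 3. The log2 fold change was 0.32 (SE 0.39, 95% interval -0.63 to 1.28, edgeR adjusted p = 0.885). Some exons of Csf1r overlap Hmgxb3 on the opposite strand, and its expected counts were not whole numbers, so its level is uncertain by the reads the genes share. Laptm5 (ENSMUSG00000028581, GRCm38 chromosome 4, 130913125 to 130936141), a lysosomal membrane protein of blood cells, had 7.76 and 4.72 CPM, against 12.9, 8.94 and 5.23 CPM in controls. The value of control replicate 3 fell between Ghr deletion replicates 1 and 2, and the log2 fold change was -0.53 (SE 0.45, edgeR adjusted p = 0.874). Ptprc, the CD45 phosphatase found on all white blood cells, had 19.3 and 14.5 CPM in libraries labelled Ghr deletion, against 33.5, 20.9 and 11.9 CPM in controls. Ptprc and Laptm5 are also made by lymphocytes. In both genes control replicate 1 was highest. The summed level of 11 T and B cell markers, with 4.70 and 2.65 CPM in libraries labelled Ghr deletion against 15.1, 8.07 and 2.01 CPM in controls, was highest in that library too. The part of lymphocytes in these values was not tested. Spi1, which encodes PU.1, was low, from 0.379 to 0.93 CPM over the 5 libraries.

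Of 5 genes of macrophage identity and adhesion, 3 had log2 fold changes above 0 and 2 below, and none passed. Aif1 (ENSMUSG00000024397, chromosome 17, 35170991 to 35176068), a calcium-binding protein also known as IBA1 and used to stain macrophages, had 2.72 and 1.62 CPM in libraries labelled Ghr deletion, against 2.78, 2.05 and 1.21 CPM in controls. Both values fell inside the range of the controls, with a log2 fold change of 0.12 (SE 0.49, edgeR adjusted p = 0.962). Adgre1, which encodes the F4/80 antigen of mouse macrophages, had 12.7 and 6.69 CPM, against 10.9, 5.29 and 6.62 CPM in controls. Cd68, a lysosomal glycoprotein of phagocytes, had 2.38 and 1.46 CPM, against 2.72, 1.34 and 1.74 CPM. The 2 integrin alpha chains differed in sign. Itgax (ENSMUSG00000030789, chromosome 7, 128129547 to 128150657), the CD11c chain of dendritic cells and some macrophages, had 4.27 and 3.00 CPM, against 6.97, 6.01 and 3.07 CPM in controls (log2 fold change -0.55 with SE 0.44, edgeR adjusted p = 0.874). Control replicate 3 was near Ghr deletion replicate 2 for Itgax and above both libraries labelled Ghr deletion for Itgam, the CD11b chain. Itgam had 8.83 and 7.09 CPM, against 6.91, 4.78 and 8.84 CPM in controls. Transcripts of Itgax match Itgad at 95% over 758 bases. Those of Itgam match Gm49368 at 99.9% over 3453 bases, and Gm49368 itself held at most 2 counts per library.

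Scavenger and lectin receptors showed the widest gap between the libraries labelled Ghr deletion. These proteins bind sugars, oxidised lipids and cell debris, and several mark resident macrophages. All 6 tested members of this role had log2 fold changes above 0, from 0.16 to 1.05, and none passed. The median difference of Ghr deletion replicate 1 over replicate 2 was 1.44 on the log2(CPM + 0.5) scale, against 0.63 over all tested members and -0.02 over all genes. Mrc1 (ENSMUSG00000026712, chromosome 2, 14229392 to 14332057), the mannose receptor CD206, had 47.0 and 15.97 CPM in libraries labelled Ghr deletion, against 21.9, 11.4 and 22.2 CPM in controls. Replicate 1 was more than any control, replicate 2 lay within their range, and the log2 fold change was 0.77 (SE 0.52, 95% interval -0.50 to 2.04, edgeR adjusted p = 0.874). Its value was -0.21 without Ghr deletion replicate 1 and 1.35 without replicate 2. Clec10a (ENSMUSG00000000318, chromosome 11, 70156197 to 70170834), a galactose-type lectin, had 5.20 and 2.02 CPM, against 1.54, 1.75 and 2.67 CPM in controls (log2 fold change 0.85 with SE 0.51, edgeR adjusted p = 0.874). Only replicate 1 of the libraries labelled Ghr deletion lay above the controls for Clec10a. Without that library its log2 fold change was 0.014, and without replicate 2 it was 1.38. Its transcripts match those of the neighbouring lectin gene Mgl2 at 96.4% over 727 bases, and its expected counts were not whole, so reads were shared between the genes.

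Msr1, scavenger receptor A, had the highest log2 fold change of the members, 1.05 (SE 0.64), and this rested on 1 library. It had 2.25 CPM in Ghr deletion replicate 1 and 0.58 CPM in replicate 2, while the controls held 0.741, 0.668 and 0.64 CPM. Without Ghr deletion replicate 1 its log2 fold change was -0.23. Cd163, the haemoglobin scavenger receptor, had 12.0 and 2.55 CPM in libraries labelled Ghr deletion, against 6.60, 0.771 and 7.92 CPM in controls. Folr2, a folate receptor of resident macrophages, had 3.79 and 0.908 CPM, against 3.77, 1.39 and 1.24 CPM in controls. Transcripts of Folr2 match the antisense gene Gm10602 at 99.8% over 479 bases, and the expected counts of Folr2 were not whole. Clec7a, the beta-glucan receptor dectin-1, had 2.36 and 1.94 CPM, against 2.78, 0.822 and 1.43 CPM. Clec4n, Timd4 and Marco did not pass the filter on low counts. Clec4n, the lectin dectin-2, held 62 and 10 counts in the libraries labelled Ghr deletion, and 6, 0 and 11 counts in controls. Timd4, a receptor for phosphatidylserine on dying cells, held 16 and 3 counts against 4, 0 and 1. Marco, a bacterial scavenger receptor, held at most 1 count per library.

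No Fc receptor or signalling adaptor passed the test. Fc receptors bind antibody-coated targets, and Fcer1g and Tyrobp are adaptors whose ITAM motifs recruit the kinase Syk. All 7 members had log2 fold changes above 0, from 0.080 to 0.86. Tyrobp (ENSMUSG00000030579, chromosome 7, 30413760 to 30417585), the adaptor DAP12, had 5.60 and 3.41 CPM in libraries labelled Ghr deletion, against 7.10, 2.67 and 3.09 CPM in controls. Both values fell within the controls' range (log2 fold change 0.080 with SE 0.52, edgeR adjusted p = 0.9752). Its direction turned without control replicate 2 or 3 and without Ghr deletion replicate 1. Fcer1g had 3.49 and 1.16 CPM, against 3.09, 1.64 and 1.87 CPM in controls. Fcgr2b (ENSMUSG00000026656, chromosome 1, 170958617 to 170976547), the inhibitory receptor for IgG, had 10.6 and 5.17 CPM, against 5.06, 2.16 and 5.76 CPM in controls. Ghr deletion replicate 1 was above every control and replicate 2 within their range, with a log2 fold change of 0.86 (SE 0.52, 95% interval -0.41 to 2.14, edgeR adjusted p = 0.874). It was 0.25 without Ghr deletion replicate 1 and 1.29 without replicate 2.

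Of the activating receptors, Fcgr3, Fcgr1 and Fcgr4 each had less in replicate 2 than in replicate 1 of the libraries labelled Ghr deletion. Fcgr3 had 8.49 and 3.33 CPM in libraries labelled Ghr deletion, against 6.42, 1.75 and 3.79 CPM in controls. Its transcripts match Fcgr2b at 96.5% over 509 bases. Fcgr1, the high-affinity IgG receptor, had 1.88 and 0.631 CPM, against 1.54, 0.822 and 0.595 CPM, and Fcgr4 had 0.794 and 0.479 CPM, against 1.296, 0.0514 and 0.485 CPM. Trem2, a lipid-sensing receptor that signals through Tyrobp, had more in replicate 2. It had 2.72 and 4.77 CPM in libraries labelled Ghr deletion, against 1.60, 3.44 and 3.90 CPM in controls. Trem2 and Ncf4 were the 2 tested members with less in Ghr deletion replicate 1 than in replicate 2.

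Among activation receptors, Cd14 separated the groups by a small margin. Cd14 (ENSMUSG00000051439, chromosome 18), the co-receptor for bacterial lipopolysaccharide, had 5.29 and 4.69 CPM in libraries labelled Ghr deletion, against 2.53, 1.54 and 4.57 CPM in controls. The mean of the libraries labelled Ghr deletion was 4.99 ± 0.419 CPM (SD, n = 2), and that of controls 2.88 ± 1.54 CPM (SD, n = 3). Control replicate 3 lay just under Ghr deletion replicate 2, and the log2 fold change was 0.78 (SE 0.49, 95% interval -0.42 to 1.98, edgeR adjusted p = 0.874). With any 1 library left out it stayed between 0.48 and 1.29. The costimulatory protein gene Cd86 had 2.90 and 0.984 CPM, against 2.41, 1.70 and 0.926 CPM in controls. Cd83, another surface protein of activated antigen-presenting cells, had 1.70 and 1.09 CPM, against 1.54, 0.668 and 0.75 CPM.

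The phagocyte oxidase makes superoxide from a membrane pair, Cybb and Cyba, and cytosolic subunits that include Ncf1 and Ncf4. Of these 4 genes, 1 had a log2 fold change above 0 and 3 below, and none passed. Cyba (ENSMUSG00000006519, chromosome 8, 122424776 to 122432930) had 4.92 and 3.71 CPM in libraries labelled Ghr deletion, against 5.74, 2.93 and 4.96 CPM in controls (log2 fold change -0.074 with SE 0.38, edgeR adjusted p = 0.969). Cybb had 11.4 and 4.87 CPM, against 9.38, 5.34 and 6.33 CPM. For Ncf1 both libraries labelled Ghr deletion lay below every control, with 2.31 and 1.92 CPM against 3.52, 2.41 and 2.47 CPM. The margin to the nearest control was small (log2 fold change -0.40 with SE 0.36, edgeR adjusted p = 0.874). An exon of Ncf1 overlaps Gtf2ird2 on the opposite strand. Ncf4 (ENSMUSG00000071715, chromosome 15, 78244801 to 78262580) was low, at 0.295 and 0.429 CPM against 0.556, 0.822 and 0.397 CPM (log2 fold change -0.69 with SE 0.57, edgeR adjusted p = 0.874). Control replicate 3 lay between the Ghr deletion replicates for Ncf4, so the groups overlapped.

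Lyz2 was the most abundant member by length-scaled level in every library, and its copy Lyz1 had the largest fitted difference. Both genes encode lysozyme, an enzyme that cuts bacterial cell walls. Lyz2 is the form of macrophages and neutrophils, and Lyz1 is the form made by Paneth cells of the mouse intestine. On the TPM scale, Lyz2 took 23.3% and 18.4% of the summed level of the 39 members in the libraries labelled Ghr deletion, and 18.3%, 14.6% and 16.5% in controls. Lyz2 (ENSMUSG00000069516, chromosome 10, 117277331 to 117282321) had 50.7 and 21.7 CPM in libraries labelled Ghr deletion, against 36.2, 14.4 and 22.1 CPM in controls. Ghr deletion replicate 1 was highest and replicate 2 just under control replicate 3, with a log2 fold change of 0.58 (SE 0.50, edgeR adjusted p = 0.874).

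Lyz1 (ENSMUSG00000069515, chromosome 10, 117287797 to 117292868) had 0.658 and 0.252 CPM in libraries labelled Ghr deletion, against 0.741, 0.822 and 13.2 CPM in controls. Control replicate 3 alone was high, and the other 4 libraries all lay under 1 CPM. The log2 fold change was -3.44 (SE 1.55, 95% interval -7.25 to 0.37), and the adjusted p was 0.874 by edgeR and 0.375 by DESeq2. Without control replicate 3 it was -0.78. On the TPM scale Lyz1 was 10.3% of the summed members in control replicate 3, against at most 0.9% in each other library. The transcripts of Lyz1 and Lyz2 match at 95.8% over 1264 bases, so counts can be divided between them. The expected counts of Lyz1 were 29.04 and 10.01 in the libraries labelled Ghr deletion, and 12, 16 and 598 in controls. In control replicate 3, Lyz2 held 1003 counts beside these 598, and both are whole numbers. Counts of Lyz2 that were not whole, 2235.96 and 857.99, were those of the libraries labelled Ghr deletion.

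The 100 bases before the RefSeq start of each lysozyme gene are shown to let the copies be compared letter by letter. The sequences, from RefSeq on GRCm38.p6, run 5′ to 3′ on the minus strand, at chr10:117292869-117292968 for Lyz1 and chr10:117282273-117282372 for Lyz2. The RefSeq start of Lyz2 lies inside the GENCODE gene given above, so the Lyz2 stretch runs across the GENCODE start. Capitals mark the 8 bases that differ, and 92 are identical.
Lyz1: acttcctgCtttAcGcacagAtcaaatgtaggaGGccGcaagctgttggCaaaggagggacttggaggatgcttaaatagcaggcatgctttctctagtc
Lyz2: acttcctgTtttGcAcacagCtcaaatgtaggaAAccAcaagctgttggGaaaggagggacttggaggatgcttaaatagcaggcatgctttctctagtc

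**Figure D3:**
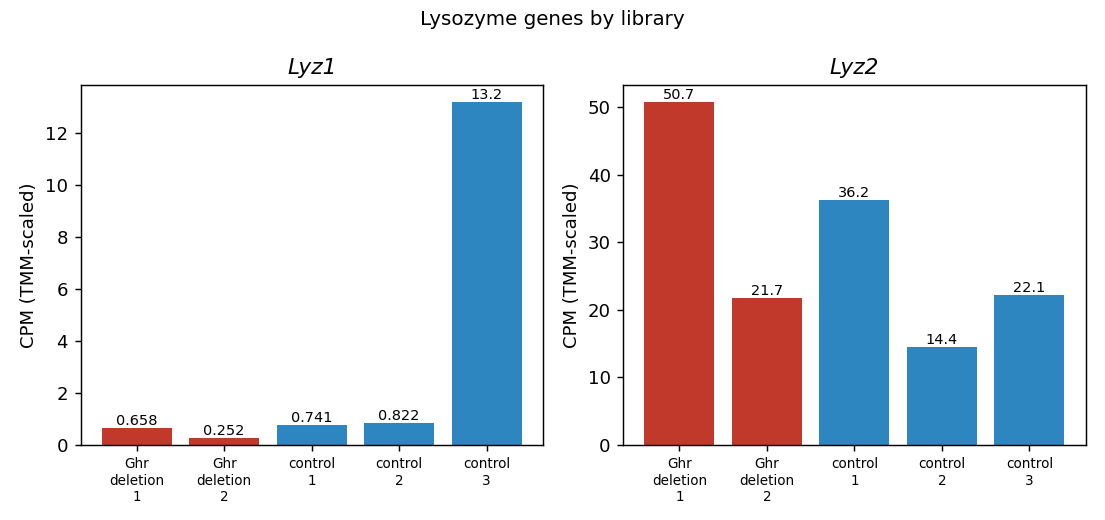
Abundance of Lyz1 and Lyz2 in CPM in each of the 5 libraries, with the bars starting at 0 and the vertical scales differing between the panels. Lyz1 reaches 13.2 CPM in control replicate 3 and stays under 1 CPM elsewhere, while Lyz2 ranges from 14.4 to 50.7 CPM.

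The other lysosomal and secreted members varied with the library. Ctss, the protease cathepsin S that processes antigens, had 22.3 and 15.3 CPM in libraries labelled Ghr deletion, against 27.5, 10.7 and 13.9 CPM in controls. Lgals3, the sugar-binding protein galectin-3, which epithelial cells also make, had 5.10 and 4.16 CPM, against 3.46, 2.05 and 2.84 CPM. Both libraries labelled Ghr deletion were above every control for Lgals3, and the log2 fold change was 0.74 (SE 0.34, 95% interval -0.11 to 1.58, edgeR adjusted p = 0.874). Epcam, an adhesion molecule of epithelium, also lay above every control, with 185 and 140 CPM in libraries labelled Ghr deletion, against 109, 93.1 and 137 CPM in controls. It was 1 of 6 luminal epithelial markers to do so, of which 3 had log2 fold changes above 0 and 3 below, with a median of -0.054. The part of epithelium in the Lgals3 value was not tested. Gpnmb, a glycoprotein of lipid-laden macrophages, had 4.83 and 4.54 CPM, against 11.2, 4.88 and 3.99 CPM in controls.

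S100a8, S100a9 and 9 of 16 further neutrophil genes were at or near 0 in every library. S100a8 (ENSMUSG00000056054, chromosome 3, 90668978 to 90670035) and S100a9 encode the calgranulins, the most abundant cytosolic proteins of neutrophils. S100a8 held 3 and 1 counts in the libraries labelled Ghr deletion and 0 in each control, and S100a9 held 3 and 0 counts against 0, 0 and 1. Both stayed at or under the limit of 3 counts per library that a count of 0 allows, so no fold is given. Of 16 further neutrophil genes, 9 held at most 3 counts in every library, and Cxcr2, Ly6g, Elane and Retnlg held 0 in all 5. Only 5 of the 16 passed the filter, and 0 passed the edgeR test over all genes. The genes of this further list with the smallest p were Ltf and Lcn2, which encode the iron-binding secretory proteins lactoferrin and lipocalin-2 and are also made by glandular epithelium. Ltf had 134 and 28.6 CPM in libraries labelled Ghr deletion, against 10.4, 9.76 and 21.2 CPM in controls (log2 fold change 2.55 with SE 0.69, edgeR adjusted p = 0.874 and 0.0432 by DESeq2). Lcn2 had 451 and 83.3 CPM, against 28.8, 17.0 and 73.3 CPM (log2 fold change 2.75 with SE 0.87, edgeR adjusted p = 0.874 and 0.0911 by DESeq2). In both genes Ghr deletion replicate 1 was far above all other libraries. The granule genes Mpo, Camp and Ngp held at most 3 counts in every library. The cell source of Ltf and Lcn2 was not tested.

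Further lists of myeloid genes were read the same way, and 0 of their genes passed edgeR's test. Of 18 tested further macrophage genes, 13 lay above 0 and 5 below, with a median log2 fold change of 0.22, the same to 2 decimals as that of the members. Siglec1, a sialic acid-binding receptor, had 4.42 and 2.30 CPM in libraries labelled Ghr deletion, against 1.98, 2.11 and 1.85 CPM in controls (log2 fold change 0.77, SE 0.40). Pf4, a chemokine of platelets and some macrophages, had 1.54 and 0.707 CPM, against 0.556, 0.616 and 0.75 CPM. The summed level of the 20 genes was 133 and 89.3 CPM, against 130, 113 and 94.7 CPM in controls. Of 3 tested monocyte genes, F13a1, a clotting factor subunit, had 0.87 as log2 fold change (SE 0.75), and Plac8 had -0.41 (SE 0.41). Of 7 tested dendritic cell genes, Cd209a, a lectin, had 0.52 (SE 0.60), and Ccr7, a chemokine receptor of migrating cells, had -0.83 (SE 0.90).

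Signalling genes of macrophages were mixed. Of 12 genes that act downstream of ITAM adaptors, 8 lay above 0 and 4 below, with a median log2 fold change of 0.11. Plcg2, a phospholipase, had 15.7 and 28.2 CPM in libraries labelled Ghr deletion, against 11.1, 12.9 and 16.9 CPM in controls. Of 13 tested myeloid growth factors, receptors and transcription factors, 6 lay above 0 and 7 below, with a median of -0.037. Csf2ra, a chain of the receptor for granulocyte-macrophage colony stimulating factor, had 1.45 and 1.34 CPM, against 2.22, 5.34 and 2.21 CPM (log2 fold change -1.22, SE 0.53), and Id2, an inhibitor of transcription, had -1.02 (SE 0.54). Of 14 lysosome genes, 10 lay above 0 and 4 below, with a median of 0.24. Hexa, which encodes a lysosomal enzyme, had a log2 fold change of 0.51 with SE 0.26. Of 7 tested genes of other oxidases or oxidase subunits, 4 lay above 0 and 3 below, with a median of 0.23. Duox1 and Duox2, epithelial oxidases, had 1.72 (SE 0.87) and 1.49 (SE 0.86).

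Mast cell and eosinophil genes split in sign. Of 6 tested genes, 4 lay above 0 and 2 below, with a median log2 fold change of 0.89. Hdc, the enzyme that makes histamine, had 0.408 and 0.126 CPM in libraries labelled Ghr deletion, against 7.35, 6.47 and 1.39 CPM in controls. Its log2 fold change was -4.21 (SE 0.98), with an adjusted p of 0.874 by edgeR and 0.0013 by DESeq2. Kit, the stem cell factor receptor, which is not limited to mast cells, had 29.0 and 50.4 CPM, against 2.53, 5.19 and 32.8 CPM (log2 fold change 1.54, SE 1.02). Control replicate 3 lay nearest to the libraries labelled Ghr deletion for Hdc and between them for Kit, so the groups overlapped for Kit.

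**Figure D4:**
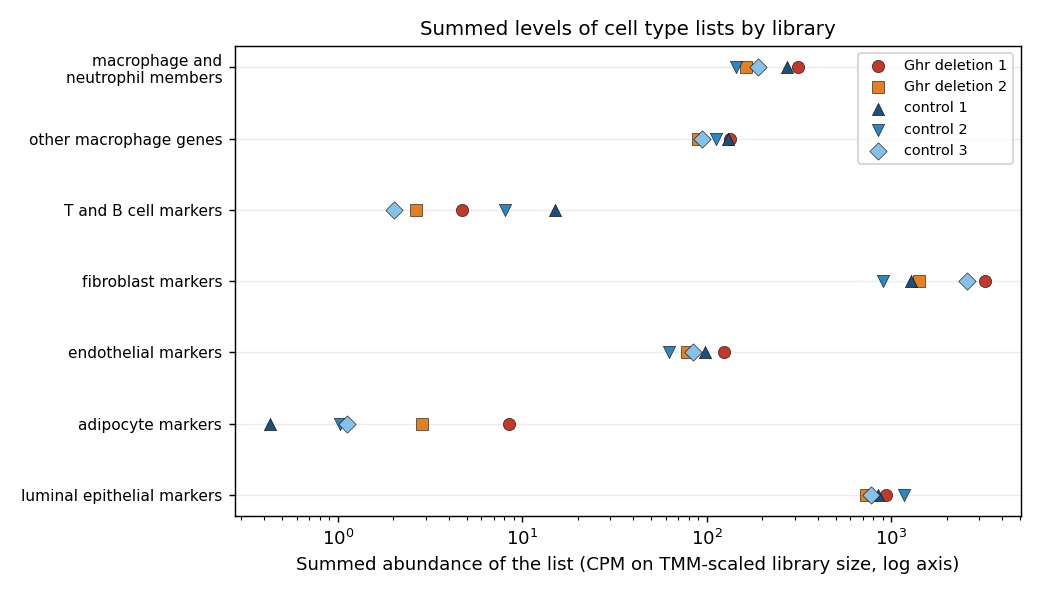
Summed CPM of the 39 members and of lists of other cell types in each library, on a log axis with 1 point per library. For the members, Ghr deletion replicate 1 (314) and control replicate 1 (274) lie highest, whereas T and B cell markers are highest in control replicate 1 (15.1) and fibroblast markers in Ghr deletion replicate 1 (3218).

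Some markers of stromal cells shared part of this order of libraries. Summed fibroblast markers were 3218 and 1409 CPM in libraries labelled Ghr deletion, against 1286, 899 and 2562 CPM in controls, with all 6 genes at a log2 fold change above 0. Endothelial markers summed to 124 and 77.8 CPM, against 97.9, 62.6 and 84.0 CPM in controls. Adipocyte markers were low and summed to 8.53 and 2.88 CPM, against 0.432, 1.03 and 1.12 CPM. Unlike the members, this list separated the groups: for all 5 genes both libraries labelled Ghr deletion lay above every control, against 10.8% of all genes. The median log2 fold change of the adipocyte genes was 3.23, and 0 passed the edgeR test over all genes. In each of these 3 lists, as for the members, Ghr deletion replicate 1 was the highest library. Smooth muscle markers did not share that order, with 5633 and 6035 CPM in libraries labelled Ghr deletion, against 4687, 2010.0 and 6810 CPM in controls, where replicate 3 was highest. Control replicate 2 was the lowest for the members, the fibroblasts, the endothelium and smooth muscle, and control replicate 1 for the adipocytes. Luminal epithelial markers, at 943 and 727 CPM against 845, 1181 and 777 CPM, were highest in control replicate 2. The part of tissue composition in the members' values was not tested.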

How the data were processed

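Total RNA libraries (TruSeq Stranded Total RNA, per the labels' protocols) were made from 5 samples. Named in the submitters' processing notes are STAR 2.5.3a, RSEM 1.3.0, bcl2fastq 2.20.422 and the build GRCm38. Neither the annotation release nor the strand setting is given there. The authors deposited RSEM tables with expected counts, in which reads fitting several genes are divided by a model, with TPM, and with effective length, per the file headers.

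Symbols were matched for 99.5% of gene identifiers. Expected counts were rounded, filtered with filterByExpr and scaled by TMM. The quasi-likelihood test of edgeR 4.0.16 (R 4.3.3) compared the groups, with no covariate, and p-values were adjusted by Benjamini-Hochberg over all tested genes at 0.05. SEs came from the fold change and its F statistic. Differences between single libraries used log2(CPM + 0.5). An exact test of 2 against 3 samples cannot reach p under 0.05. The edgeR step was run on simulated data with added fold changes, and how many of these it found is not given here. Coordinates are from GENCODE M21 (GRCm38), and transcripts were matched with BLAST.

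Members and lists were chosen with earlier results of these data known. The members given in full are those with the smallest p and the highest mean TPM in each of 8 roles (14 genes), and the 2 with the smallest p per further list, of which some are not reported here; other genes named, such as Lgals3, Ncf1, Trem2, Msr1 and Epcam, were picked once their values were known. The p-values measure spread between these samples. Floors of 3 counts cover counting error only. Of the 39 members, 6 had expected counts that were not whole within 0.005.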

Additional observations from a re-analysis of the deposited data

How the results depend on the processing

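Across 18 alternatives, 0 members passed over all genes, except 7 members on log2(TPM + 1) with limma-trend (Cd14, Cd83, Clec10a, Fcgr1, Fcgr2b, Msr1 and Spi1), where 12% of all genes were called higher and the median of all genes moved to 0.87. The members' median there was 0.82, under that of all genes. It was 1.44 with a pseudocount of 0.1, where the median of all genes was 1.33, and 0.84 by library size only, where it was 0.58. Over all genes, DESeq2 called 81, no low-count filter 2, limma-trend 2294 with a pseudocount of 1 and 733 with 0.1, and the replicate block 1126. Leaving out 1 library called between 0 and 48 genes, with 48 in the fit without control replicate 3, and moved the members' median between -0.32 and 0.69.

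The replicate block gave a members' median of 0.088 and 0 members called. Only 2 numbers are shared by the groups, and the labels do not say whether they mark litters or days. Whether libraries with the same number were paired in any way is not known. The difference of replicate 1 over replicate 2 correlated between groups at 0.323 over 18590 genes.

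Directions turned for some named members. By library size only the values were 0.15 for Laptm5, 0.14 for Itgax and 0.49 for Cyba. On log2(TPM + 1) they were 1.05 for Laptm5, 0.43 for Itgax, 1.13 for Cyba and 0.36 for Ncf4, and on log2(TPM + 0.1) 1.39 for Laptm5, 0.85 for Itgax, 1.43 for Cyba and 1.01 for Ncf4. With effective lengths as offsets Aif1 was -0.080. With the replicate block Aif1 was -0.19, Tyrobp -0.0058 and Cyba 0.054. Without control replicates 1 and 2 together Laptm5 was 0.26 and Itgax 0.25. With 1 library left out, Csf1r ran from -0.28 to 0.75, Aif1 from -0.31 to 0.45, Mrc1 from -0.21 to 1.35, Tyrobp from -0.33 to 0.64, Lyz2 from -0.16 to 1.07 and Cyba from -0.31 to 0.12. Lyz1 ran from -4.28 to -0.78, Clec10a from 0.014 to 1.38 and Fcgr2b from 0.25 to 1.29, and these kept their sign. The cause of these turns was not tested. With 2 and 3 libraries, the 95% intervals of 26 of 34 members held both no difference and a 2-fold higher level.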
